A study of Mus musculus with 40 samples.

Results

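GL261 gliomas grow in the mouse brain surrounded by microglia and infiltrating monocytes and macrophages, and the comparison described here asked how the RNA of these myeloid cells differed after a combined treatment. The treatment was 7aaRGD plus an antibody against PD-1, here called the combination, and the reference was vehicle, both at 28 days post-implantation (DPI). Its members were the samples with a column for either group in the 28 DPI table, which gave 3 combination and 4 vehicle samples, 7 of the 40 samples in the series. The same table held 4 samples with 7aaRGD alone and 3 with anti-PD-1 alone, used for the spread and for comparison. The fourth anti-PD-1 sample and the fourth combination sample in the labels were not analysed here.

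Every animal carried GL261 tdTomato+luc+ glioma cells, a mouse line marked with a fluorescent protein and luciferase, in the right striatum, and an osmotic pump that delivered fluid into the tumor. Vehicle mice received water from the pump and control IgG. 7aaRGD, a peptide with the Arg-Gly-Asp motif that RGD-binding integrins recognise, was pumped at 2 mg/ml. The anti-PD-1 antibody was injected into the peritoneum 4 times from day 8 to day 14, at 10 mg/kg each time, and combination mice received both agents. Each sample was the CD11b+ fraction of 1 mouse, sorted by FACS from the tumor-bearing hemisphere of adult male mice. CD11b, an integrin subunit of myeloid cells, is also carried by neutrophils, dendritic cells and NK cells, so the gate can hold them. The labels call these mice nude, whereas the study's methods describe C57BL/6 mice for GL261. Nude mice lack a thymus and mature T cells. The 5 T-cell genes checked (Cd3d, Cd3e, Cd3g, Cd8a and Cd8b1) summed to 0.107 to 0.603 RPKM in the vehicle samples and 1.3 to 2.39 in the combination samples. In the separately normalised 21 DPI tables, the sums were 0.106 to 2.54 in C57BL/6 mice with GL261 and 0.0275 to 0.128 in nude mice with U87-MG, both given vehicle.

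PD-1 is an inhibitory receptor on T cells, and blocking it lets activated T cells and NK cells release interferon-γ. Interferon-γ acts on macrophages and microglia through the kinases JAK1 and JAK2, and switches on antigen presentation, chemokines, GTPases that attack intracellular vacuoles, and nitric oxide synthesis. Integrins that bind RGD motifs, such as αvβ3 and α5β1, connect these cells to matrix proteins including osteopontin (SPP1), through which glioma cells recruit and polarise them.

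Values are given as RPKM, reads scaled to the length of the gene and to the total of the sample, so levels can be compared between genes. Differences are log2 fold changes on the log2(RPKM + 1) scale with their standard error (SE), which understates the change of genes near or under 1 RPKM. They were tested with limma (two-sided, Benjamini-Hochberg adjusted over the 9740 protein-coding genes that averaged 1 RPKM or more), and "rose" or "fell" means an adjusted p under 0.05. Between 9556 and 9823 protein-coding genes reached 1 RPKM in each of the 14 samples, and samples of a group correlated at a Pearson r of 0.9883 to 0.992, against 0.9487 to 0.9649 between vehicle and combination. The number of reads per sample is unknown. The sum of 12 myeloid genes that the sort should hold, such as Itgam, Csf1r and Aif1, was 5430 to 5980 RPKM with vehicle and 5380 to 5610 with the combination. Mitochondrially encoded RNA took 3.02% to 4.39% of the summed RPKM with vehicle and 2.26% to 2.44% with the combination, and its part in the results was not tested.

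The combination separated from vehicle across much of the transcriptome. Of the 9740 genes, 1707 rose (17.5%) and 2508 fell (25.7%), together 43.3%. The 3 and 4 samples did not overlap for 4754 genes (48.8%). Counts of calls in the lists below, and remarks on groups without overlap, are to be read against these shares. Most differences were small, with a median size of 0.44 on the log2 scale among the genes called, and 246 rose and 133 fell by at least 1. The direction of the smaller ones depended on the scaling: with TMM factors, 2186 rose and 2099 fell, while the median over all genes was -0.049 without them. On the first principal component of the 14 samples, which held 53.8% of the variance, vehicle lay between -19.6 and -12.8 and the combination between 24.3 and 29.9. Samples with 7aaRGD alone lay between -14.9 and -12, next to vehicle, and those with anti-PD-1 alone between 7.7 and 15.7.

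**Figure D1:**
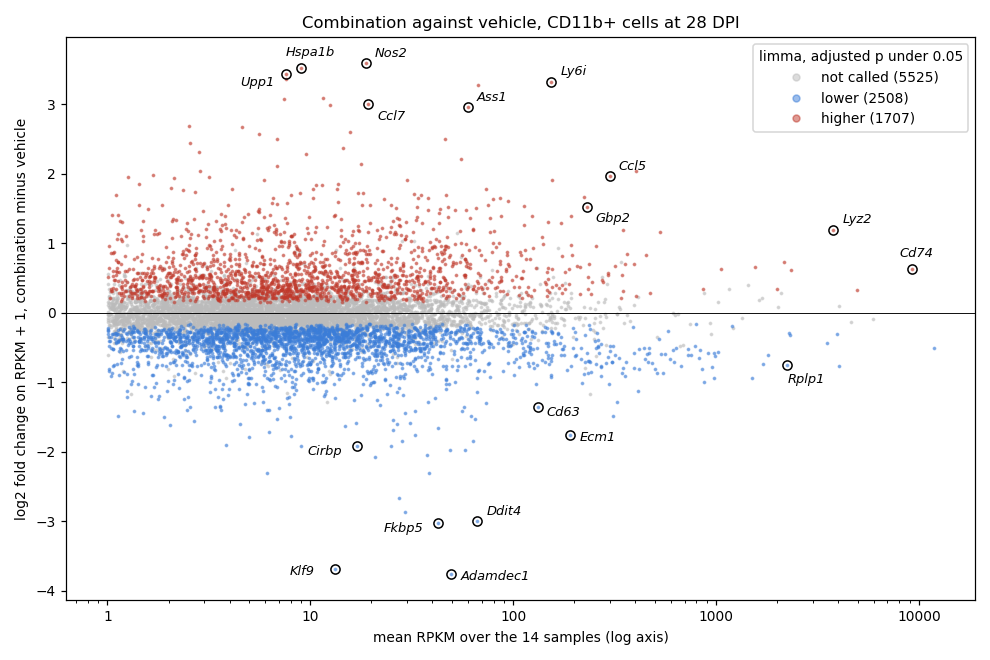
Mean level over the 14 samples (RPKM, log axis) against the log2 fold change of the combination over vehicle for each of the 9740 genes tested, in red for the 1707 that rose and in blue for the 2508 that fell. Labelled genes run from Nos2 at 3.60 to Adamdec1 at -3.76, and most differences lie between -1 and 1.

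Nos2, the inducible nitric oxide synthase of activated macrophages (chromosome 11 from 78920787 to 78960254 of mm10), had the highest log2 fold change of the genes tested on the log2(RPKM + 1) scale. Its level was 4.98, 2.67, 3.18 and 3.59 RPKM in the vehicle samples and 65.9, 41.8 and 56.4 in the combination samples, a log2 fold change of 3.60 (SE 0.28, adjusted p = 1.35e-06). Ass1, argininosuccinate synthase, which regenerates the arginine that Nos2 consumes (chromosome 2 from 31470207 to 31520672), was at 14.1, 20.9, 15.4 and 19.1 RPKM with vehicle and 173, 137 and 117 with the combination. Its log2 fold change was 2.96 (SE 0.19, adjusted p = 4.84e-07), and every combination sample was several times above every vehicle sample. Both genes were among 20 inflammatory effectors, of which 15 rose and 1 fell, with a median of 1.09 against -0.049 over all genes. Ptgs2, the cyclooxygenase of prostaglandin synthesis, went from 6.77, 3.38, 6.73 and 5.72 to 40.8, 24.6 and 56.2 RPKM (log2 fold change 2.60, adjusted p = 0.000133). Il1b, which encodes interleukin-1β, was at 226, 112, 119 and 104 RPKM with vehicle and 448, 217 and 453 with the combination (log2 fold change 1.40, adjusted p = 0.00583). It overlapped by 1 pair, since vehicle sample 1 was above combination sample 2. Cybb, the catalytic subunit of the phagocyte NADPH oxidase, did not pass the test (log2 fold change 0.09, adjusted p = 0.622).

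The interferon-γ-induced GTPases rose together. They comprise the guanylate-binding proteins (GBPs) and the immunity-related GTPases, which assemble on vacuoles that hold pathogens. All 18 that were tested rose, with a median log2 fold change of 1.17. In the other fits run at the same threshold, apart from those with another filter on low values, 16 to 18 rose. Several are near-identical copies, such as Tgtp1 and Tgtp2, and the split of reads between such copies is uncertain. T-cell and NK-cell transcripts, described further on, were higher in the same samples, and their part in this group was not tested. Promoters of 3 members and of Isg15, a gene induced by type I interferon, are printed because they hold the letters of the interferon-stimulated response element (ISRE), searched as GAAA, any 2 bases and GAAA again on both strands in windows of 250 bases before to 50 after each start. They are RefSeq sequence of GRCm38.p6, 5′ to 3′ on the gene's strand, cut to the 250 bases before the start, with ISRE letters in capitals. Gbp2 is at chr3:142620413-142620662, Gbp5 at chr3:142496684-142496933 and Igtp at chr11:58199306-58199555, all on the plus strand, and Isg15 is at chr4:156200819-156201068 on the minus strand.
Gbp2: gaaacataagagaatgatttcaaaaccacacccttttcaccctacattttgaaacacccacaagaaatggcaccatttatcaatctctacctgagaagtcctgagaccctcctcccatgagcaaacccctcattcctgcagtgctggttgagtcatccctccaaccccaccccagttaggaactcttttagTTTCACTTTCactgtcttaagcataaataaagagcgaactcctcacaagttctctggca
Gbp5: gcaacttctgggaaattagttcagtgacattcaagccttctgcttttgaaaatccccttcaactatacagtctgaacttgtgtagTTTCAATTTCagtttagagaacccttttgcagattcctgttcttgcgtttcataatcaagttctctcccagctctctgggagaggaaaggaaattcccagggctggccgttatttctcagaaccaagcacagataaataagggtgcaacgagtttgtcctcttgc
Igtp: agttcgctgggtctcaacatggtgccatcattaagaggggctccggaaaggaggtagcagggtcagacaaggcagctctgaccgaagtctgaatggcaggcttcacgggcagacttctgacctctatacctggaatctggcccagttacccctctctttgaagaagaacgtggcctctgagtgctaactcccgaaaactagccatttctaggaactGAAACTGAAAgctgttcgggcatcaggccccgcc
Isg15: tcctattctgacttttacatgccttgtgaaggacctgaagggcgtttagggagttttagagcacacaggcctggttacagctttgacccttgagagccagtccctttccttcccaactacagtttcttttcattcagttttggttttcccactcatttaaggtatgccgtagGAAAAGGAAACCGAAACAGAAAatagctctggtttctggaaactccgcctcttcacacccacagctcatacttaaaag
In Isg15 the capitals are overlapping matches. Of the 11 GTPase genes with a window, 10 held these letters (90.9%), and Ifi47 did not, against 3.99% of all 27025 genes and 4.16% of the genes tested. The letters of a GAS element (gamma-activated site, TTCNNNGAA, either strand) were in 6 of the 11 (54.5%), Gbp5 and Igtp included, against 9.55% of all genes. A match describes the letters and does not show binding.

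Gbp2 was the most abundant of these GTPases (chromosome 3 from 142620602 to 142638008). Its level was 123, 99.5, 169 and 143 RPKM with vehicle and 461, 261 and 462 with the combination, so the lowest combination sample was above the highest vehicle sample (log2 fold change 1.53, SE 0.21, adjusted p = 8.66e-05). Gbp5, which assists inflammasome assembly, was at 18.2, 12.5, 20.9 and 18.1 RPKM with vehicle and 66.5, 45.3 and 65.5 with the combination (log2 fold change 1.71, adjusted p = 1.77e-05). Igtp (Irgm3) was at 47.8, 31.1, 56.8 and 45.1 RPKM with vehicle and 148, 108 and 145 with the combination (log2 fold change 1.56, adjusted p = 6.83e-05). In each of the 3 genes, combination sample 2 was the lowest of its group.

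Among 17 genes of interferon-γ signalling and its feedback, 11 rose and 1 fell, with a median of 0.37. Irf1, a transcription factor that interferon-γ induces (chromosome 11 from 53770014 to 53778374), was at 42.7, 41.9, 69.8 and 64.3 RPKM with vehicle and 177, 115 and 140 with the combination (log2 fold change 1.39, SE 0.2, adjusted p = 0.000151). Every combination sample was above every vehicle sample. Nlrc5, the activator of MHC class I genes, rose by 1.22 (SE 0.13, adjusted p = 1.32e-05). The gene that fell was Ifngr1, the ligand-binding chain of the interferon-γ receptor, at 211, 183, 161 and 170 RPKM with vehicle and 102, 112 and 131 with the combination (log2 fold change -0.65, adjusted p = 0.00136). Socs3, a feedback inhibitor of cytokine receptors, overlapped between the groups and did not pass the test (0.29 on the log2 scale, adjusted p = 0.196).

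The type I interferon response, which restricts virus replication in most cells, rose in 21 of 23 genes and fell in 0, with a median of 0.65. Isg15, the ubiquitin-like modifier whose promoter is shown above, was at 77.1, 55.3, 87.3 and 70.2 RPKM with vehicle and 209, 137 and 185 with the combination (log2 fold change 1.27, SE 0.24, adjusted p = 0.000925). Oas3, which makes the signal that activates RNase L, rose by 1.32 (adjusted p = 4.89e-06), and Ddx58, the RNA sensor RIG-I, by 1.11 (adjusted p = 7.17e-06). Bst2, or tetherin, was the most abundant member, at 243, 243, 222 and 230 RPKM with vehicle and 341, 302 and 342 with the combination (log2 fold change 0.48, adjusted p = 7.01e-05). ISRE letters were in 12 of the 19 genes of this list with a promoter window (63.2%), and not in that of Irf7, which rose by 0.64 (adjusted p = 0.00583).

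Genes of antigen presentation were already among the most abundant RNAs with vehicle and most of them rose with the combination. Of 10 MHC class II genes, which present peptides to CD4 T cells, 8 rose and 0 fell, with a median of 0.62. Cd74, the invariant chain, was at 9280, 8650, 7730 and 7440 RPKM with vehicle and 12400, 12100 and 13800 with the combination (log2 fold change 0.63, SE 0.17, adjusted p = 0.0102). H2-Ab1, a class II β chain, was at 2160, 1910, 1720 and 1710 RPKM with vehicle and 3150, 2960 and 3270 with the combination (log2 fold change 0.74, adjusted p = 0.00593). In both genes every combination sample was above every vehicle sample. H2-Oa, part of the regulator of peptide loading, was at 21.7, 28.3, 16.9 and 23.7 RPKM with vehicle and 71.5, 54.2 and 96.9 with the combination (log2 fold change 1.65, adjusted p = 0.000381). H2-Ob, its partner chain, rose by 1.27 (adjusted p = 2.93e-05). Of 20 genes of MHC class I and peptide loading, 17 rose and 0 fell, with a median of 0.60. H2-K1, a classical class I heavy chain, was at 958, 963, 794 and 847 RPKM with vehicle and 1400, 1300 and 1420 with the combination (log2 fold change 0.63, adjusted p = 0.000534), and B2m, the light chain, rose by 0.33 (adjusted p = 0.0078). H2-D1, the other classical heavy chain, did not pass the test (0.19, adjusted p = 0.162). With no filter on low values, Cd74 and B2m missed the threshold at the same fold changes (adjusted p = 0.12 and 0.185). Class I genes resemble each other closely, so their reads can be split differently by other counting rules.

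Co-stimulatory and maturation genes, which let antigen-presenting cells activate T cells, rose in 10 of 17 cases and fell in 0. Their median was 0.91, and over all genes tested 17.5% rose and 25.7% fell. Tnfrsf9 and Ccr7, both low with vehicle, passed the filter on a mean that included the treated samples. Tnfrsf9, which encodes the receptor CD137, had the smallest p. It was at 0.39, 0.493, 0.511 and 0.397 RPKM with vehicle and 13.7, 4.86 and 8.56 with the combination, a log2 fold change of 2.69 (SE 0.25, adjusted p = 5.48e-06). Ccr7, the receptor that guides mature dendritic cells to lymph nodes, was at 0.583, 0.496, 1.03 and 0.63 RPKM with vehicle and 4.43, 5.92 and 5.99 with the combination (log2 fold change 1.94, adjusted p = 9.74e-06), and Fscn1, the actin bundler of the same cells, rose by 1.56 (adjusted p = 0.000184). Icam1, the adhesion ligand of LFA-1, was at 48.6, 41.2, 47.2 and 45.8 RPKM with vehicle and 85.1, 75.1 and 77.8 with the combination (log2 fold change 0.78, adjusted p = 6.67e-05). Cd40 rose by 0.93 (adjusted p = 0.0111) and Cd86 by 0.43 (adjusted p = 0.0129), but each lost its call in 1 fit with a sample left out. These values were 0.82 (adjusted p = 0.0508) for Cd40 without combination sample 1 and 0.37 (adjusted p = 0.0605) for Cd86 without combination sample 3. Cd83, a marker of mature dendritic cells, did not pass the test (0.03, adjusted p = 0.927).

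Of 14 inhibitory checkpoint genes, 7 rose and 2 fell (over all genes tested, 17.5% and 25.7%), with a median of 0.22. Cd274, which encodes the PD-1 ligand PD-L1 (chromosome 19 from 29367455 to 29388095), was at 56, 33.3, 33.4 and 46.5 RPKM with vehicle and 138, 80.5 and 114 with the combination, a log2 fold change of 1.37 (SE 0.22, adjusted p = 0.000352). The other ligand, Pdcd1lg2, named here after its values were seen, was at 2.63, 6.95, 4.75 and 6.2 RPKM with vehicle and 51.9, 27.2 and 17.8 with the combination (log2 fold change 2.37, adjusted p = 0.00383). Pdcd1, the gene of PD-1 itself and target of the antibody, was low, at 0.75, 2.01, 1.28 and 0.797 RPKM with vehicle and 4.69, 3.67 and 2.58 with the combination (log2 fold change 1.08, adjusted p = 0.000518). None of these 3 genes overlapped between the groups, which held for 48.8% of all genes tested. Vsir, which encodes the inhibitory receptor VISTA, did not pass the test (log2 fold change -0.08, adjusted p = 0.573).

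Chemokines of the CC family, which attract monocytes, T cells and dendritic cells, rose in 7 of 12 cases and fell in 0, with a median of 1.07. Ccl7, a monocyte attractant (chromosome 11 from 82045712 to 82047525), was at 2.68, 3.18, 5.4 and 4.94 RPKM with vehicle and 35.5, 41.5 and 38.2 with the combination, a log2 fold change of 3.00 (SE 0.21, adjusted p = 8.31e-07). Ccl2, which acts on the same receptor, CCR2, was at 7.29, 9.15, 16.2 and 12.8 RPKM with vehicle and 37.8, 45.5 and 48.1 with the combination (log2 fold change 1.91, adjusted p = 5.65e-05). Both sets of 3 combination samples lay closely together and above all vehicle samples. Ccl5, a T-cell attractant also made by T and NK cells, was at 162, 266, 128 and 101 RPKM with vehicle and 685, 471 and 687 with the combination (log2 fold change 1.97, adjusted p = 0.000512). Ccl22, a product of mature dendritic cells, was at 1.21, 0.639, 1.87 and 1.38 RPKM with vehicle and 14.6, 12 and 13.5 with the combination (log2 fold change 2.68, adjusted p = 4.14e-05). Ccl8, another ligand of CCR2, did not pass the test (0.04, adjusted p = 0.95). Of 6 CXC chemokines, 2 rose and 0 fell (over all genes tested, 17.5% and 25.7%). Cxcl13, a B-cell attractant, was at 2.57, 1.99, 1.62 and 0.382 RPKM with vehicle and 21.8, 12.2 and 30.1 with the combination (log2 fold change 3.08, adjusted p = 5.65e-05). Cxcl10, an interferon-induced ligand of CXCR3, was at 56.8, 35.2, 63.7 and 59.1 RPKM with vehicle and 136, 116 and 111 with the combination (log2 fold change 1.18, adjusted p = 0.00679). Cxcl9, another CXCR3 ligand, was at 163, 255, 350 and 210 RPKM with vehicle and 289, 362 and 361 with the combination, with overlapping groups (log2 fold change 0.51, adjusted p = 0.0964), and it passed without vehicle sample 3 (0.70, adjusted p = 0.0198).

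**Figure D2:**
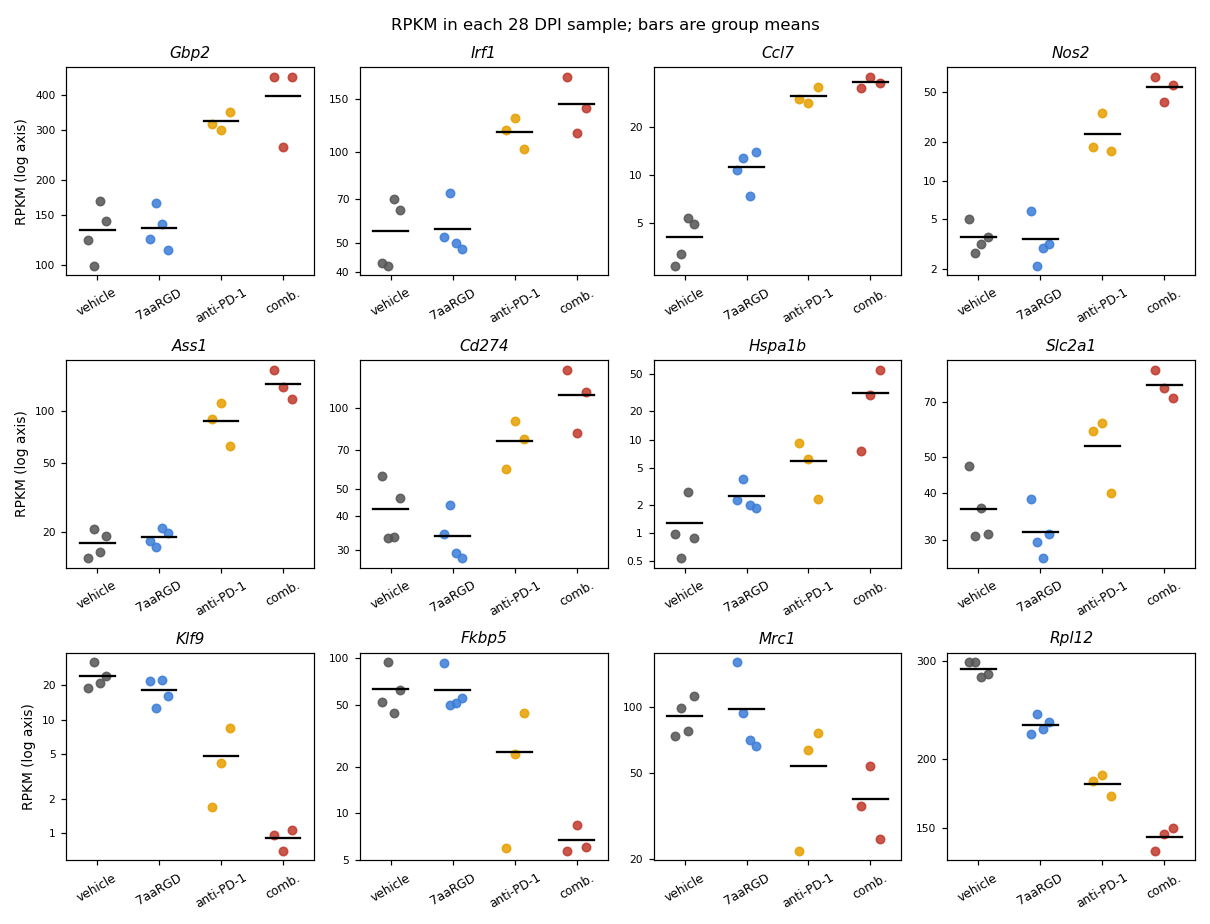
RPKM (log axes) of 12 genes in each sample of the 4 groups at 28 DPI, with points for samples and bars for group means. Combination samples lie above all vehicle samples for Nos2, Ass1, Ccl7 and Irf1 and below them for Klf9, Fkbp5, Mrc1 and Rpl12.

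Genes of alternative activation, a state linked to tissue repair and tumor support, were tested for 17 members, of which 4 rose and 4 fell. Their median log2 fold change was -0.03, and their values ran from -2.67 to 1.84. The 4 that rose are not among the genes described below, so those genes do not stand for the list. Over all genes tested 17.5% rose and 25.7% fell, with a median of -0.049. Without combination sample 1 the counts were 2 and 2, and without combination sample 3 the number that fell was 2. Mrc1, the mannose receptor CD206, was at 73.9, 98.9, 77.7 and 113 RPKM with vehicle and 35.1, 53.6 and 24.8 with the combination, without overlap (log2 fold change -1.29, SE 0.4, adjusted p = 0.019). The call was lost without combination sample 1 (-1.27, adjusted p = 0.0548) and without combination sample 3 (-1.03, adjusted p = 0.0907). Ecm1, an extracellular matrix protein (chromosome 3 from 95734147 to 95739569), was at 213, 290, 266 and 199 RPKM with vehicle and 58.7, 110 and 53.5 with the combination (log2 fold change -1.75, adjusted p = 3.48e-05). Ocstamp, needed for the fusion of osteoclasts and giant cells, was at 43.6, 43.8, 47.7 and 52.1 RPKM with vehicle and 5.15, 10.1 and 5.14 with the combination (log2 fold change -2.67, adjusted p = 3.27e-05). Arg1, the arginase that competes with Nos2 for arginine, was at 199, 287, 148 and 424 RPKM with vehicle and 802, 377 and 228 with the combination. Its groups overlapped and the change did not pass the test (log2 fold change 0.74, SE 0.62, adjusted p = 0.347). Chil3 was at 93.9, 205, 190 and 234 RPKM with vehicle and 163, 70.1 and 38.3 with the combination, also overlapping (log2 fold change -1.16, adjusted p = 0.249).

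Of 20 genes that phagocytes use to handle lipids and debris, 2 rose and 6 fell (over all genes tested, 17.5% and 25.7%). Their median was -0.07, against -0.049 over all genes, and their values ran from -1.35 to 1.01. The 2 that rose are not among the genes described below. The number that fell was 2 without combination sample 1 or combination sample 3 and 3 without vehicle sample 1, vehicle sample 2 or vehicle sample 3. The number that rose was 1 without vehicle sample 1, vehicle sample 3 or any combination sample. Cd63, a lysosomal tetraspanin, was at 182, 203, 136 and 207 RPKM with vehicle and 65.3, 81.5 and 63.9 with the combination (log2 fold change -1.35, SE 0.17, adjusted p = 5.33e-05). Ctsl, the protease cathepsin L, fell by 0.59 (adjusted p = 0.00345). Gpnmb, a glycoprotein of tumor-associated macrophages, was at 136, 186, 107 and 214 RPKM with vehicle and 89.2, 122 and 68.2 with the combination, overlapping by 1 pair (log2 fold change -0.77, adjusted p = 0.0182). It missed the threshold without vehicle sample 4 (-0.62, adjusted p = 0.053), without combination sample 1 (-0.76, adjusted p = 0.0525) and without combination sample 3 (-0.57, adjusted p = 0.0979).

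Spp1, which encodes osteopontin, was at 206, 407, 244 and 242 RPKM with vehicle and 165, 278 and 111 with the combination, with overlap (log2 fold change -0.62, SE 0.35, adjusted p = 0.171). Of 7 genes listed as ligands of RGD-binding integrins, 0 rose and 2 fell (over all genes tested, 17.5% and 25.7%). The 2 were Ecm1, also counted above under alternative activation, and Mfge8. Whether the product of each listed gene binds these integrins was not checked here. Mfge8 fell by 0.62 (adjusted p = 0.0135), but not without combination sample 3 (-0.52, adjusted p = 0.0645). Of 5 RGD-binding integrin subunits, 2 rose and 0 fell, and 1 rose when vehicle sample 1, vehicle sample 2, vehicle sample 4, combination sample 1 or combination sample 2 was left out. Itgb1, the β1 chain, was at 74.7, 74.6, 65.4 and 72.5 RPKM with vehicle and 88.7, 98.6 and 89.5 with the combination, without overlap (log2 fold change 0.36, adjusted p = 0.000838). Itgb5, the most abundant of these subunits, was at 292, 379, 323 and 291 RPKM with vehicle and 303, 348 and 351 with the combination, with overlap (log2 fold change 0.06, adjusted p = 0.688).

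Transcripts of cytotoxic lymphocytes rose in these CD11b+ samples. Of 10 genes of NK and cytotoxic cells that were tested, 8 rose and 0 fell, with a median of 1.88. The list held 20 genes, and the others averaged under 1 RPKM over the 14 samples. That mean includes the treated samples, so genes low with vehicle could enter the test through them. The count is therefore not a share of the whole list. Prf1, which encodes the pore-forming protein perforin, was at 0.25, 0.947, 0.611 and 0.684 RPKM with vehicle and 3.47, 9.38 and 10.1 with the combination (log2 fold change 2.32, SE 0.52, adjusted p = 0.00289). Gzmb, the protease granzyme B, was at 0.402, 3.7, 1.53 and 2.49 RPKM with vehicle and 8.09, 18.8 and 20.5 with the combination (log2 fold change 2.51, adjusted p = 0.00916). For both genes and for Il2rb, the interleukin-2 receptor β chain (log2 fold change 1.80, adjusted p = 0.00861), combination sample 1 was the lowest of its group and still above every vehicle sample. Gzma rose by 2.99 (adjusted p = 0.0177), but not without combination sample 2 (2.63, adjusted p = 0.0676) or combination sample 3 (2.74, adjusted p = 0.0632). Klrk1, the activating receptor NKG2D, rose by 1.12 (adjusted p = 0.0014). None of 23 T-cell genes reached the mean of 1 RPKM needed for the test. They summed to 2.56 to 4.68 RPKM with vehicle and 10.5 to 16.7 with the combination, and 0 of them were under 0.1 RPKM in all 7 samples. Their sums were 14, 10.4 and 2.95 RPKM in the anti-PD-1 samples, of which the last was as low as vehicle, and 1.94 to 4.36 with 7aaRGD. Ifng, the gene of interferon-γ itself, was named after its values were seen and lay between 0.0115 and 0.111 RPKM with vehicle and at 1.93, 0.627 and 1.38 with the combination. The sum over the 20 NK and cytotoxic genes was 118 to 283 RPKM with vehicle and 581 to 802 with the combination, most of it Ccl5. In bulk RNA, more cells of a type and more RNA per cell cannot be told apart.

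**Figure D3:**
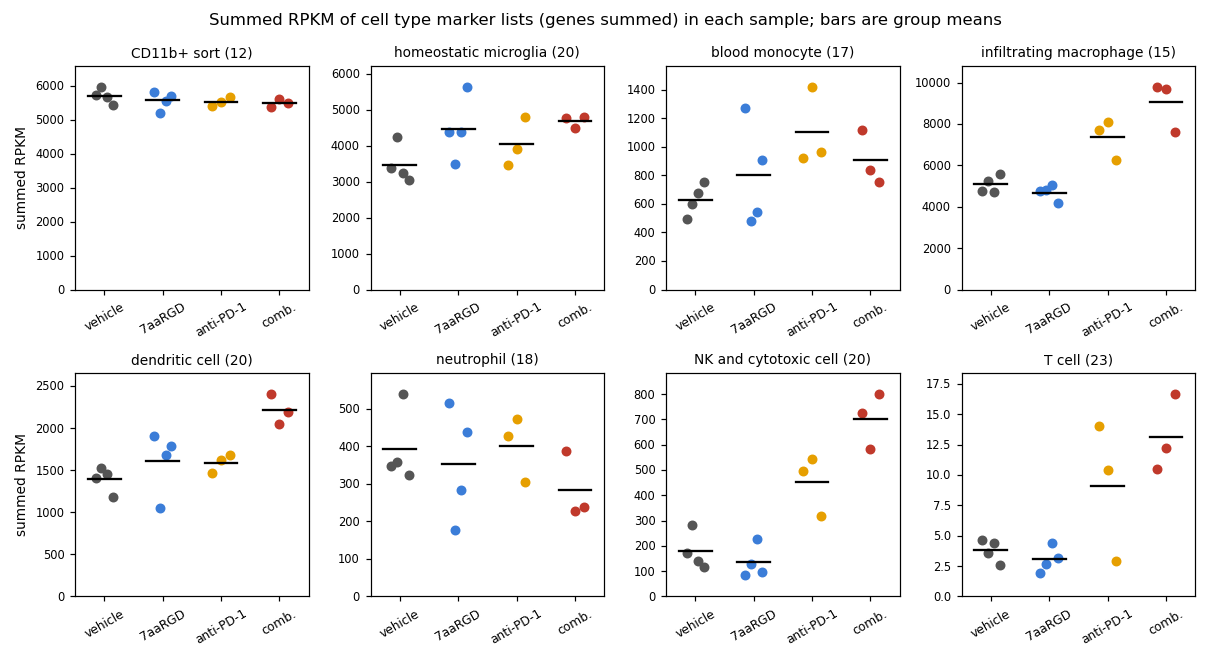
Summed RPKM of cell-type marker lists in each sample of the 4 groups, with each panel on its own axis from 0. The T-cell panel runs from 2.56 to 4.68 RPKM with vehicle and from 10.5 to 16.7 with the combination, whereas the 12 genes of the CD11b+ sort lie between 5380 and 5980 in both.

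Markers of the myeloid types in the gate differed to unlike extents. Over all genes tested 17.5% rose and 25.7% fell, with a median of -0.049. Of 20 genes of homeostatic microglia, the resident macrophages of the brain, 11 rose and 1 fell, with a median of 0.63, and 0 fell without vehicle sample 1, vehicle sample 4, combination sample 1 or combination sample 3. Cx3cr1, the fractalkine receptor, was at 263, 307, 288 and 234 RPKM with vehicle and 434, 446 and 442 with the combination (log2 fold change 0.70, SE 0.096, adjusted p = 9.85e-05). Of 17 genes of blood monocytes, 8 rose and 1 fell. Plac8, a marker of inflammatory monocytes, was at 10.3, 13.8, 24.1 and 15.7 RPKM with vehicle and 222, 103 and 170 with the combination (log2 fold change 3.28, adjusted p = 1.18e-05), whereas Gsr, glutathione reductase, fell by 1.35 (adjusted p = 6.84e-05). Of 14 genes of infiltrating macrophages, 4 rose and 2 fell, with a median of 0.08 and values from -1.22 to 1.20. The 2 that fell are not among the genes described. Lyz2, the lysozyme of phagocytes, was at 2480, 2880, 2630 and 2770 RPKM with vehicle and 6450, 7040 and 5210 with the combination (log2 fold change 1.20, adjusted p = 5.65e-05), whereas Ms4a7, a membrane protein of macrophages, did not pass the test (-0.11, adjusted p = 0.798). Of 12 dendritic-cell genes, 9 rose and 1 fell, with a median of 1.14 and values from -0.95 to 2.68. Ccl22, Ccr7, Fscn1 and Cst3 (0.66, adjusted p = 0.00774) were among those that rose, and the gene that fell is not described. The number that fell was 0 without vehicle sample 2, vehicle sample 4, combination sample 2 or combination sample 3. Flt3, Zbtb46, Xcr1 and Clec9a of this list averaged under 1 RPKM and were not tested.

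Of 14 neutrophil genes, 1 rose and 3 fell (over all genes tested, 17.5% and 25.7%). Retnlg was at 22.3, 64.9, 37.9 and 61 RPKM with vehicle and 9.01, 4.63 and 2.93 with the combination (log2 fold change -2.86, SE 0.63, adjusted p = 0.00272), and Il1r2, a decoy receptor, fell by 1.97 (adjusted p = 0.000159). Csf3r, the receptor of the granulocyte growth factor, rose by 0.84 (adjusted p = 0.00015), and S100a9, a calcium-binding protein of neutrophils and monocytes, overlapped and did not pass (-0.45, adjusted p = 0.577). Of 7 genes of the oligodendrocyte lineage, 2 rose and 3 fell. The 3 were its transcription factors, among them Sox10, at 6.2, 8.55, 8.66 and 5.9 RPKM with vehicle and 1.56, 2.01 and 1.57 with the combination (log2 fold change -1.60, adjusted p = 6.6e-06), and Olig1, at 10.6, 14.7, 16.8 and 8.07 RPKM with vehicle and 2.12, 3.56 and 2.96 with the combination (log2 fold change -1.77, adjusted p = 4.19e-05). Cnp, a myelin enzyme, rose by 0.63 (adjusted p = 0.000507). Both B-cell genes and both hemoglobin genes that were tested did not pass, and 9 of 15 B-cell genes were under 0.1 RPKM in all 7 samples. Of 12 endothelial and mural genes, only 3 were tested, and these rose, with Flt1, a VEGF receptor that monocytes also carry, at 1.05, 2.6, 1.39 and 2.16 RPKM with vehicle and 10.8, 5.98 and 5.23 with the combination (log2 fold change 1.55, adjusted p = 0.00255). The untested ones averaged under 1 RPKM, and each overlapped between the groups. Cldn5, for example, was at 0.385, 1.39, 1.3 and 0.648 RPKM with vehicle and 0.591, 0.554 and 0.663 with the combination. Of 13 neuron and astrocyte genes, 4 were tested (Aldoc, Slc1a3, Gfap and Nrgn), of which 2 rose and 0 fell. The number that rose was 1 with the replicate block, with no filter, with length and GC trends taken out, and without vehicle sample 1, vehicle sample 3, vehicle sample 4, combination sample 1 or combination sample 3. The list summed to between 14.3 and 23.7 RPKM with vehicle and between 26.4 and 34.3 RPKM with the combination, without overlap. Most of this sum came from the 4 tested genes. The untested ones averaged under 1 RPKM, and each overlapped between the groups. Of 7 genes of border-associated macrophages, which line the meninges and vessels, 1 rose and 2 fell, and the number that fell was 1 with length and GC trends taken out and without vehicle sample 2, and 0 without combination sample 1 or combination sample 3. Of 4 genes of plasmacytoid dendritic cells, 2 rose and 0 fell (over all genes tested, 17.5% and 25.7%), and 1 rose without combination sample 1. The 2 were Bst2, also in the type I interferon list, and Siglech, also in the list of homeostatic microglia. Ccr9, Klk1, Pacsin1, Cd209d and Ly6d averaged under 1 RPKM and were not tested, so these counts do not single out this cell type. The part of other cells in the results was not tested.

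Glycolysis genes and targets of the hypoxia factor HIF-1 rose in 20 of 21 cases and fell in 0, with a median of 0.97. Upp1, uridine phosphorylase, which releases ribose for glycolysis (chromosome 11 from 9118103 to 9136170), was at 0.798, 0.913, 1.56 and 1.07 RPKM with vehicle and 27.2, 15.8 and 23 with the combination, a log2 fold change of 3.44 (SE 0.19, adjusted p = 4.84e-07). Tpi1, triosephosphate isomerase, was at 61.8, 69.5, 77.5 and 61.2 RPKM with vehicle and 221, 187 and 185 with the combination (log2 fold change 1.54, adjusted p = 1.56e-06). Slc2a1, the glucose transporter GLUT1, was at 47.3, 30.7, 36.4 and 31.1 RPKM with vehicle and 85.2, 75.9 and 71.4 with the combination (log2 fold change 1.09, adjusted p = 0.000256). None of the 3 overlapped between the groups. Among the abundant enzymes, the rise was 0.85 for Aldoa (adjusted p = 8.43e-05), 0.55 for Pkm (adjusted p = 0.000273) and 0.31 for Gapdh (adjusted p = 0.00644), which is often used as a reference gene. The gene of this list that was not called was Gpi1, named after its values were seen (log2 fold change 0.03, adjusted p = 0.794).

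The core of the element that HIF-1 binds, ACGTG, was searched on both strands of the same promoter windows. It was in 15 of 20 genes of this list with a window (75%), against 21.8% of all genes and 30.6% of those tested. The promoter of Slc2a1, chr4:119108495-119108744 on the plus strand, is printed as an example from the genes described, with these letters in capitals.
Slc2a1: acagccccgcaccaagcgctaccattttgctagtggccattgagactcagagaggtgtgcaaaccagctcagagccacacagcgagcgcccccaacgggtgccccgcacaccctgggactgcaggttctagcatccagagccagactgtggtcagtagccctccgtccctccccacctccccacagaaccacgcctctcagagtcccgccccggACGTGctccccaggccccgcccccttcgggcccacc
The windows of Tpi1 did not hold these letters, and those of Upp1 did.

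Chaperones and immediate early genes, both sensitive to stress and to tissue dissociation, also changed. Of 14 cytosolic heat shock chaperones, 8 rose and 0 fell (over all genes tested, 17.5% and 25.7%), with a median of 0.46. Hspa1b was at 0.992, 0.538, 2.74 and 0.885 RPKM with vehicle and 7.64, 29.7 and 56.1 with the combination (log2 fold change 3.52, SE 0.53, adjusted p = 0.000201), and Hspa1a at 1.17, 0.48, 2.43 and 0.608 RPKM with vehicle and 6.43, 24.1 and 49.6 with the combination (log2 fold change 3.37, adjusted p = 0.000274). These genes encode nearly the same HSP70 protein, so the split of reads between them is uncertain. Their combination samples spread widely, with sample 1 lowest and sample 3 highest, and did not overlap with vehicle. Of 19 immediate early genes, 8 rose and 1 fell (over all genes tested, 17.5% and 25.7%). The number that rose was 5 without combination sample 1 and 4 without combination sample 3, and 0 fell without vehicle sample 2, vehicle sample 3, vehicle sample 4 or combination sample 2. Egr2 was at 5.54, 9.82, 15 and 12 RPKM with vehicle and 43.9, 29.5 and 33.7 with the combination (log2 fold change 1.72, adjusted p = 0.000179), Egr3 rose by 1.32 (adjusted p = 0.000525), and Junb did not pass the test (0.08, adjusted p = 0.689).

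The 10 largest falls among the genes tested included 4 that glucocorticoids induce. Of 10 glucocorticoid-responsive genes, 0 rose and 7 fell, with a median of -1.60. Klf9, a transcription factor that responds within hours to corticosterone (chromosome 19 from 23141226 to 23168134), was at 19.1, 32, 20.8 and 24 RPKM with vehicle and 0.971, 0.698 and 1.06 with the combination, a log2 fold change of -3.69 (SE 0.32, adjusted p = 3.36e-06). Fkbp5, a co-chaperone of the glucocorticoid receptor (chromosome 17 from 28399094 to 28517527), was at 52.4, 94.6, 44.1 and 62.7 RPKM with vehicle and 5.71, 8.46 and 6.06 with the combination (log2 fold change -3.02, adjusted p = 0.000262). Ddit4, an inhibitor of mTORC1, was at 87.6, 130, 104 and 80.6 RPKM with vehicle and 10.5, 11.9 and 12.1 with the combination (log2 fold change -3.00, adjusted p = 3.36e-05), and Tsc22d3 (GILZ) at 43.1, 88.5, 52.4 and 48.3 RPKM with vehicle and 9.71, 16.3 and 13.2 with the combination (log2 fold change -2.04, adjusted p = 0.000249). In these 4 genes every combination sample was below every vehicle sample. Nfkbia, which inflammatory signals also induce, did not pass the test (0.11, adjusted p = 0.653).

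Other groups were looked at after these values were seen. All 3 metallothioneins tested fell, with Mt1 at 134, 104, 90.9 and 98.9 RPKM with vehicle and 26.3, 31.3 and 29.1 with the combination (log2 fold change -1.84, adjusted p = 4.84e-07). Metallothioneins bind zinc and are induced by metals and by glucocorticoids. Both cold-inducible RNA-binding genes fell, Rbm3 by 1.53 (adjusted p = 8.24e-06) and Cirbp by 1.92 (adjusted p = 0.000184). Of 14 circadian clock genes, 0 rose and 2 fell (over all genes tested, 17.5% and 25.7%), and 1 rose without combination sample 3. The 2 were Per1, which fell by 1.76 (adjusted p = 0.00185) and which glucocorticoids also induce, and Cry1, which fell by 0.74 (adjusted p = 0.000935). Among the largest falls of single genes, Adamdec1, a secreted metalloprotease of macrophages, was at 52.3, 83.2, 66.8 and 179 RPKM with vehicle and 4.71, 6.28 and 5.16 with the combination (log2 fold change -3.76, SE 0.71, adjusted p = 0.00096). Vehicle sample 4 was the highest, and the 3 combination samples lay closely together. Adamtsl4 fell by 2.30 (adjusted p = 1.66e-05), as did the transcriptional repressor Hic1 (adjusted p = 4.97e-05), and Ap1s2, a subunit of a clathrin adaptor, by 2.07 (adjusted p = 1.93e-06). Of the largest rises not yet named, Ly6i was at 24, 59.9, 32.6 and 39.8 RPKM with vehicle and 440, 361 and 345 with the combination (log2 fold change 3.33, adjusted p = 1.51e-05). Its Ly6 relatives are similar in sequence, so its reads may be shared. Apol7c, an apolipoprotein L of dendritic cells, was at 0.786, 1.76, 2.4 and 4.7 RPKM with vehicle and 37.1, 26.1 and 17.8 with the combination (log2 fold change 3.10, adjusted p = 0.00046).

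Nearly all cytosolic ribosomal protein genes fell, the structural proteins of the translating ribosome. Of 82 tested, 79 fell and 0 rose, with a median of -0.70, and 79 fell in each of the other fits run at the same threshold except the one limited to genes averaging 5 RPKM or more, in which 78 of 81 fell. Their summed level was 37500 to 39000 RPKM with vehicle, 30300 to 31700 with 7aaRGD, 25900 to 28000 with anti-PD-1 and 22200 to 24400 with the combination. Rpl12 was at 299, 299, 281 and 284 RPKM with vehicle and 136, 146 and 150 with the combination (log2 fold change -1.01, SE 0.059, adjusted p = 4.84e-07), and Rplp1, the most abundant member, at 2820, 2890, 2830 and 2770 RPKM with vehicle and 1580, 1720 and 1760 with the combination (log2 fold change -0.75, adjusted p = 1.51e-06). In both genes all combination samples were below all vehicle samples. Ribosomal genes are short, and short genes were lower as a whole: the median log2 fold change was -0.159 in the shortest of 5 equal bins of exonic length and 0.026 in the longest, and it was -0.008 in the lowest and -0.109 in the highest of 5 bins of GC content. With length and GC trends taken out per sample, the median of the ribosomal list was -0.52. Many ribosomal genes have processed pseudogenes, and reads shared with them were dropped or not according to their mapping quality.

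Genes of mitochondria also fell in part. Of 77 mitochondrial ribosomal protein genes, 0 rose and 44 fell, with a median of -0.23, and with length and GC trends taken out 5 rose and 34 fell. Mrps34 was at 18.4, 17.8, 18.5 and 17.6 RPKM with vehicle and 8.53, 10.3 and 8.98 with the combination (log2 fold change -0.90, SE 0.067, adjusted p = 1.09e-06). Of 91 nuclear genes of oxidative phosphorylation, 0 rose and 50 fell, with a median of -0.24, and with the trends taken out 9 rose and 29 fell, with a median of -0.06. Ndufs8, a subunit of complex I, was at 63.9, 61.7, 62.5 and 59 RPKM with vehicle and 33.5, 36.8 and 37.1 with the combination (log2 fold change -0.77, adjusted p = 1.75e-06). Cox4i1, a subunit of complex IV, fell by 0.47 (adjusted p = 5.65e-05), whereas Cox6b1, another, did not pass the test (0.03, adjusted p = 0.648) and was past the threshold with the trends taken out (0.24, adjusted p = 0.00351). Of 35 proteasome genes, 1 rose and 8 fell (over all genes tested, 17.5% and 25.7%), with a median of -0.11. With the trends taken out 5 rose and 5 fell, and 5 fell without combination sample 3. Psmc1, an ATPase of the proteasome's cap, fell by 0.65 (adjusted p = 8.42e-06).

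Of 27 genes of DNA replication and mitosis, 0 rose and 6 fell (over all genes tested, 17.5% and 25.7%), with a median of -0.36. The number that fell was 1 with the replicate block, with no filter, without vehicle sample 3, without vehicle sample 4, without combination sample 1 and without combination sample 3, it was 3 without vehicle sample 1, and it was 16 when only vehicle and combination were fitted. Cdc20, which triggers the exit from mitosis, was at 4.72, 5.19, 6.81 and 7.07 RPKM with vehicle and 1.84, 3.7 and 2.42 with the combination (log2 fold change -0.94, SE 0.21, adjusted p = 0.00319). Mki67, the gene of the proliferation marker Ki67, was at 11.2, 9.32, 14.2 and 14.1 RPKM with vehicle and 9.74, 10.9 and 9.13 with the combination, with overlap (log2 fold change -0.26, adjusted p = 0.421). Pcna, the clamp of the replication fork (-0.06, adjusted p = 0.787), and Mcm3, a subunit of the replicative helicase (-0.12, adjusted p = 0.553), did not pass either.

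**Figure D4:**
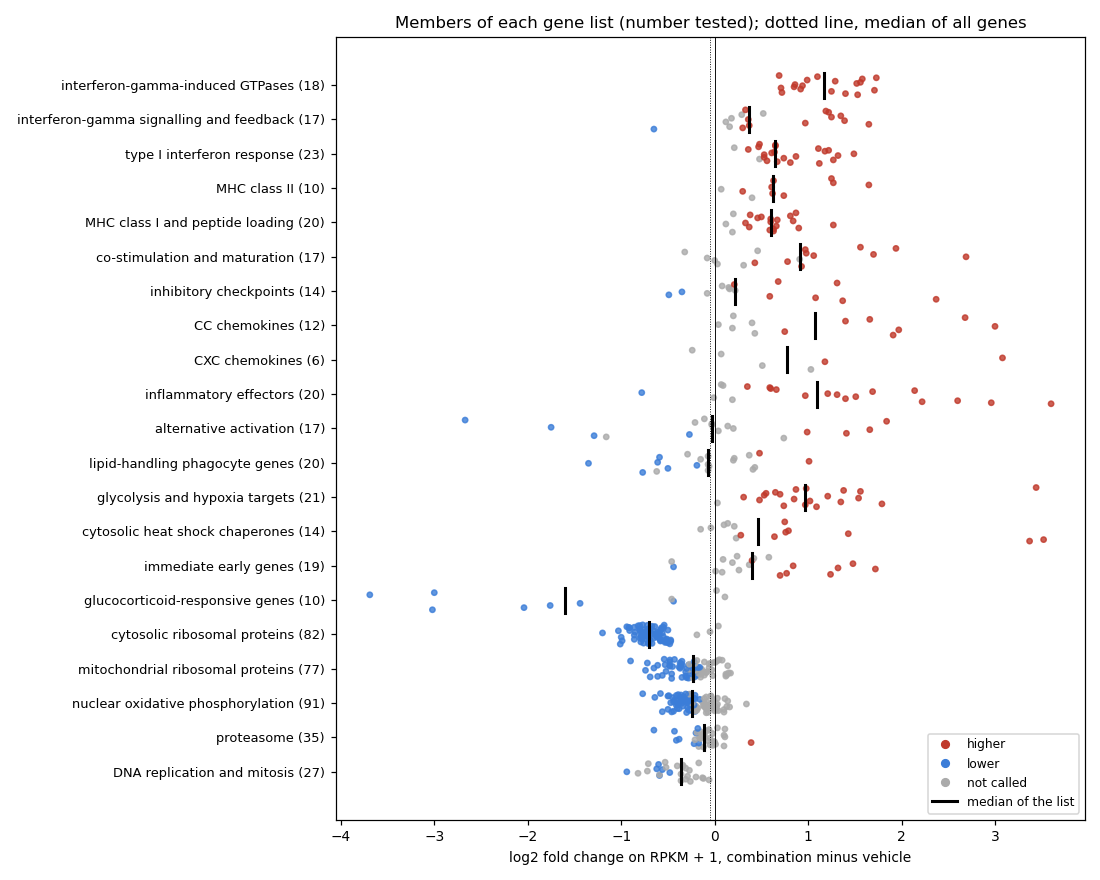
Log2 fold change of the combination over vehicle for the tested genes of 21 lists, with a point for every gene, coloured by its call, and a bar at the list's median. The medians run from 1.17 for the interferon-γ-induced GTPases to -1.60 for glucocorticoid-responsive genes, with -0.70 for the 82 cytosolic ribosomal protein genes.

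The 3 anti-PD-1 samples show how far the antibody alone went. Comparisons with vehicle share the 4 vehicle samples, so they are given side by side without a measure of likeness. Against vehicle, 1055 genes rose and 1191 fell with anti-PD-1 alone (23.1%), and 12 rose and 51 fell with 7aaRGD alone (0.647%). The median log2 fold change of the interferon-γ-induced GTPases was 0.84 with anti-PD-1 and -0.03 with 7aaRGD, against 1.17 with the combination. For MHC class II it was 0.33, -0.33 and 0.62, for inflammatory effectors 0.64, 0.02 and 1.09, for glycolysis 0.54, 0.03 and 0.97, and for glucocorticoid-responsive genes -1.27, -0.11 and -1.60. The ribosomal list had medians of -0.48, -0.29 and -0.70, and 42 of its 82 genes were lower with 7aaRGD alone. Ccl7 and Ccl2 were also higher with 7aaRGD alone, at means of 11.2 and 28.3 RPKM against 4.05 and 11.3 with vehicle.

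Tested directly, the combination differed from anti-PD-1 alone in 4 genes (0.0411% of those tested), 2 higher (0.0205%) and 2 lower (0.0205%), with 1461 at an unadjusted p under 0.05. Tnfrsf9 was at 1.19, 2.75 and 1.22 RPKM with anti-PD-1 and 13.7, 4.86 and 8.56 with the combination (log2 fold change 1.83, adjusted p = 0.0348). Dpysl2, a cytoskeletal protein, was at 12.2, 11.4 and 11.1 RPKM with anti-PD-1 and 16.4, 17.3 and 16.1 with the combination (log2 fold change 0.49, adjusted p = 0.0108). The lower genes were Ssbp4, at 40.2, 39.8 and 44.4 RPKM with anti-PD-1 and 28.9, 30.5 and 28.6 with the combination (log2 fold change -0.48, adjusted p = 0.0196), and Mrps34 (-0.46, adjusted p = 0.0499). The number of genes called was 0 without anti-PD-1 sample 3, combination sample 1 or combination sample 3, 1 without anti-PD-1 sample 1 and 26 without combination sample 2. Several of the named genes lay between the threshold and an adjusted p of 0.1: Nos2 (log2 fold change 1.25, adjusted p = 0.0837), Upp1 (1.02, 0.068), Ccl22 (1.43, 0.09), Ccr7 (0.86, 0.09), Ptgs2 (1.63, 0.09), Cxcl13 (1.74, 0.0893), Klf9 (-1.41, 0.09) and Ecm1 (-1.10, 0.068). Il1b (1.04, adjusted p = 0.214), Mrc1 (-0.39, 0.702) and Chil3 (-1.77, 0.344) were farther from it.

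Against 7aaRGD alone, 1269 genes were higher (13%) and 2291 lower (23.5%) with the combination, together 36.6%. With TMM factors 1675 were higher and 1657 lower, with median-of-ratios factors 1696 and 1630, and with length and GC trends taken out 1767 and 1610. The smallest p-values were for Ass1, Upp1 and Anapc16, a subunit of the anaphase-promoting complex, which was at 14.7, 12.5, 13.4 and 13.2 RPKM with 7aaRGD and 5.58, 5.54 and 5.4 with the combination (log2 fold change -1.15, adjusted p = 1.87e-06). Ass1 was at 17.8, 16.3, 21.2 and 19.7 RPKM with 7aaRGD and 173, 137 and 117 with the combination (log2 fold change 2.85, adjusted p = 1.87e-06). Upp1 differed by 3.38 (adjusted p = 1.2e-06).

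An interaction in limma tested whether the combined difference departed from the single differences added together on the log2 scale. Of the genes tested 0 passed, with 793 at an unadjusted p under 0.05. Groups of 3 or 4 samples can miss such departures, so this count does not show that the agents add up. The smallest adjusted p was 0.281, for Tnfrsf11a, the receptor RANK, with an interaction of -0.59, for Tnfrsf9 with 1.98 and for Nr4a2, a nuclear receptor induced by T-cell and inflammatory signals, with 1.28. For Tnfrsf9 the group means were 0.448 RPKM with vehicle, 0.318 with 7aaRGD, 1.72 with anti-PD-1 and 9.03 with the combination. The corresponding means of Nr4a2 were 1.32, 0.962, 1.86 and 4.9 RPKM. Without combination sample 2 the interaction passed for 3 genes.

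**Figure D5:**
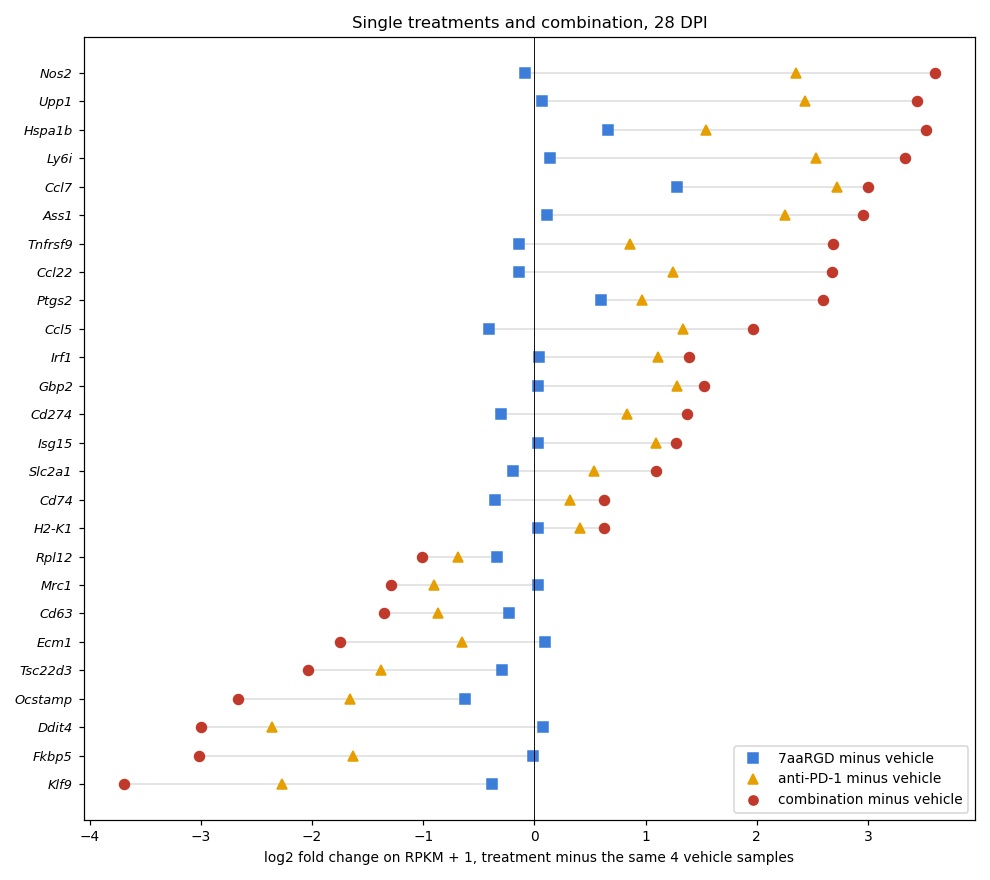
Log2 fold change over vehicle of named genes for 7aaRGD, anti-PD-1 and the combination, which share the same 4 vehicle samples. Nos2 is at -0.08, 2.35 and 3.60, Tnfrsf9 at -0.14, 0.86 and 2.69, and Klf9 at -0.38, -2.27 and -3.69.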

How the data were processed

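After trimming with Trimmomatic, the authors aligned the reads to mm10 with STAR and counted those of at least mapping quality 10 per gene, by strand, with HTSeq 0.11.1, per the study's methods and the submitters' processing notes. The deposited 28 DPI table holds values that were read here as RPKM plus 2, made by the authors by a normalisation that is not given in the sources used here. The unit was inferred because 27166 of 54513 rows held exactly 2 in every sample and, once 2 was subtracted, sums of value times exonic length were alike in the 14 samples. Values under the constant (5.12% to 7.76%) were set to 0, and 15 columns of per-sample values in other tables were not used. Symbols matched GENCODE vM21 or RefSeq for 53903 rows (98.9%), 21907 of them protein-coding.

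limma 3.58.1 (R 4.3.3) was fitted to log2(RPKM + 1) of all 14 samples, 1 mouse each, with group means and a variance trend, on protein-coding genes averaging at least 1 RPKM. On simulated data with the same 9740 genes, 187 of 200 genes changed by 1 on the log2 scale were recovered, with 9 false calls. Deviations of replicates spanned 9 of the 10 dimensions that the samples allow, so adjusted p-values may be somewhat too small. Same-numbered vehicle and combination samples did not deviate together (0 of 3 pairs over a correlation of 0.1), so no block was used. Named genes were those the study names, the 10 largest rises and falls, and in each list the 3 most abundant and the 2 with the smallest p, with the 3 smallest p-values of the other comparisons, apart from some items that are not reported here. The members and gene lists were chosen with earlier results of these data known. Alternatives were the pseudocount, the filter, TMM and median-of-ratios factors, all named rows, the groups fitted, values under the constant, the replicate block, the variance trend, the threshold and each sample left out.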

Additional observations from a re-analysis of the deposited data

Results flagged for a closer look

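In the vehicle group, Il1b in sample 1 stood apart at 226 RPKM, whereas the other 3 samples lay between 104 and 119, a gap above Dixon's critical value of 0.829 for 4 samples. It was the only one of 124 values that did so, and chance alone sets about 1 in 20 groups apart.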

How the results depend on the processing

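Of the 4215 genes that differed between combination and vehicle, 379 also had an absolute log2 fold change of at least 1. Leaving out a sample gave 3355 to 3982, and the other alternatives stayed within 1.5 times. The share of calls that were higher depended on the scaling: 1707 rose and 2508 fell as deposited, 2186 and 2099 with TMM factors, 2183 and 2109 with median-of-ratios factors and 2155 and 1985 with length and GC trends taken out. The last setting, and 1 residual degree of freedom less (3860 genes), were added after seeing the data.

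Against anti-PD-1 the 4 genes became 14 with a pseudocount of 5 RPKM, 20 with no filter, 13 with a mean of at least 5 RPKM, 2 with all named rows, 0 when only these groups were fitted, 1 with 1 residual degree of freedom less, 1 with an absolute log2 fold change of at least 1 and 183 at an adjusted p under 0.1. Leaving out a sample gave 0 to 26, and the cause was not tested. Against 7aaRGD, 319 genes had an absolute log2 fold change of at least 1, and 2556 to 3423 were called with a sample left out. The interaction gave 0 to 3 genes with a sample left out. With the replicate block, 1578 genes rose and 2190 fell against vehicle, 3005 differed from 7aaRGD, and 0 differed from anti-PD-1 or passed the interaction. Of 19 same-numbered pairs, 3 had a correlation over 0.1, the highest at 0.366 for sample 3 of 7aaRGD and of the combination. Whether same-numbered samples were handled together is not known.

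Of 2365 pairs of a named gene and an alternative, 2349 stayed on the same side of the threshold, 12 lost the call, 4 gained one and 0 reversed. The number of reads, and so the counting error of genes near 1 RPKM, is unknown.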
